A study of Mus musculus with 3 samples.

Results

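Long intergenic noncoding RNA (lincRNA) genes outside protein-coding genes were examined for H3K36me3 in fully-grown mouse germinal vesicle (GV) oocytes. The members were the 2 kb windows whose midpoint lay in a gene of type lincRNA of GENCODE M21 and in no protein-coding gene, on the 19 autosomes. They numbered 49384 of the 1186323 valid windows of the series and of 1120034 on autosomes. Of 5207 autosomal lincRNA genes, 4526 held at least 1 member window, 681 held none, and 2986 held at least 3, the minimum used for values per gene. All 3 samples were a single group: GV oocytes of wildtype C57BL6/Babr mice, 25 days old, in replicate pools of about 280 cells. Chromatin was digested with micrococcal nuclease and immunoprecipitated without cross-linking, and a smaller amount of antibody went into replicate 2. The label lincRNA comes from the annotation alone. ChIP reads carry no strand of transcription, and whether these genes are transcribed in oocytes was not measured in the values used.

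H3K36me3 is placed on histone H3 by SETD2, which travels with elongating RNA polymerase II, so the mark builds up over transcribed gene bodies. In growing oocytes DNA methylation is laid down mainly over transcribed regions that carry this mark. H3K27me3 is set by the Polycomb complex PRC2 over repressed genes, and H3K4me3 marks promoters and, in oocytes, also broad domains outside them. LincRNAs are RNA polymerase II transcripts without a long open reading frame. Many are restricted to a single tissue, and in mouse oocytes a number of transcripts start in long terminal repeats of retrotransposons.

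To show what the starts of these genes look like, 300 bases around the annotated start are printed for the 4 genes with the highest level (the rule is given with their values below) and for the 3 lincRNA genes of a list of oocyte transcripts. Each runs from 250 bases before to 50 bases after the start, 5′ to 3′ on the gene's strand, from the RefSeq copy of GRCm38.p6. Capitals mark CpG dinucleotides, searched as CG, which reads the same on both strands.
5430440P10Rik: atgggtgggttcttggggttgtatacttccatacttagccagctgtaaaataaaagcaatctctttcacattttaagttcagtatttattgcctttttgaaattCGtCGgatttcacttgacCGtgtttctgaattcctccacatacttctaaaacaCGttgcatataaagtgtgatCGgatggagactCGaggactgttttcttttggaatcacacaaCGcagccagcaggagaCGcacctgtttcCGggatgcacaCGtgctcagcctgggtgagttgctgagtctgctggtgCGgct
Gm49632: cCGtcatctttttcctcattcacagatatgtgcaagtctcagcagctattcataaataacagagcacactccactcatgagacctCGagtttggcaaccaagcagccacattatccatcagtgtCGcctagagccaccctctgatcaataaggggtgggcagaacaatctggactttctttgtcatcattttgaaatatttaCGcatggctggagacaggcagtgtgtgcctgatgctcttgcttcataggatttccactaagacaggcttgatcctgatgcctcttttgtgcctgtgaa
Gm16080: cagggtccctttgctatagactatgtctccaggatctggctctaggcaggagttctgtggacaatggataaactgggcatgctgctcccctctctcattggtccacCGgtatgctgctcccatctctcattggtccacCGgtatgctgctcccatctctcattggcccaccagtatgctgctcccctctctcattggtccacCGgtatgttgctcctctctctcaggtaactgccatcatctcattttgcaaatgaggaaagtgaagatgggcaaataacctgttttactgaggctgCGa
4930459C07Rik: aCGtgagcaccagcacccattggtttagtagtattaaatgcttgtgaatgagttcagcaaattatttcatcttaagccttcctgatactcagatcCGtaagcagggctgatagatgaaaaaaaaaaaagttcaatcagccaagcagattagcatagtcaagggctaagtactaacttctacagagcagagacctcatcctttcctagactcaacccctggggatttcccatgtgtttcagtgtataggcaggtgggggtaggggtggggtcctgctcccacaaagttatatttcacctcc
1700020I14Rik: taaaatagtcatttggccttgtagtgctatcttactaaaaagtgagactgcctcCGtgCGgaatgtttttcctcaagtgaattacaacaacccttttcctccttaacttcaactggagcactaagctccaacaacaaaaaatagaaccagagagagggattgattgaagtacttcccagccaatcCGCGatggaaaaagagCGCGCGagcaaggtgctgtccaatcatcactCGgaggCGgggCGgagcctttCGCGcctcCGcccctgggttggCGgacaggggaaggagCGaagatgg
C86187: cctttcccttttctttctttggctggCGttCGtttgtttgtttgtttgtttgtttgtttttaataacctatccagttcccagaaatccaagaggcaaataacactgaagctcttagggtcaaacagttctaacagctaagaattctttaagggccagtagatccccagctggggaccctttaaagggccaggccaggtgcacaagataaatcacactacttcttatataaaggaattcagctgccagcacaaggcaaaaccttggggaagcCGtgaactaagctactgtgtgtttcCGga
Gm20939: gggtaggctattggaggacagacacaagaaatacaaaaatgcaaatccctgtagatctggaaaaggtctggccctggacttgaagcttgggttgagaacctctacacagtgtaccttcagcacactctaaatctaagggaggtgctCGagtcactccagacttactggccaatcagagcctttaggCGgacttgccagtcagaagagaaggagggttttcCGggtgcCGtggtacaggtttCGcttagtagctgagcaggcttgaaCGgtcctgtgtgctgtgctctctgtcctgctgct
The windows are chr14:105427309-105427608, plus strand for 5430440P10Rik, chr17:7645078-7645377, plus strand for Gm49632, chr4:131710459-131710758, minus strand for Gm16080, chr10:96225770-96226069, plus strand for 4930459C07Rik among the highest genes. They are chr2:119594047-119594346, plus strand for 1700020I14Rik, chr7:46975862-46976161, minus strand for C86187, chr17:94864668-94864967, plus strand for Gm20939 in the oocyte list.

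The number of CpG in these 300 bases was 11 for 5430440P10Rik, 4 for Gm49632, 4 for Gm16080 and 2 for 4930459C07Rik. It was 15 for 1700020I14Rik, 4 for C86187 and 6 for Gm20939. A CpG was present in 91.5% of the starts of the 2986 lincRNA genes and in 96.0% of those of 16477 protein-coding genes of the same window minimum, with medians of 3 and 14 CpG. The start of 1700020I14Rik was thus close to the coding median, while Gm49632, Gm16080, 4930459C07Rik and C86187 lay near the lincRNA median.

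The level of H3K36me3 was taken as RPKM per window, on the scale of the deposited table, where a single read counted for 0.136, 0.396 and 0.338 in replicates 1, 2 and 3. The member windows held 295978, 99832 and 118780 reads in replicates 1, 2 and 3, with a median of 4, 1 and 1 reads per window. Replicates 2 and 3 had no read in 40.6% and 41.7% of the members, against 9.06% in replicate 1. Single windows are therefore coarse, and averages over genes and classes are firmer. No value separates PCR copies from independent molecules.

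LincRNA windows were intermediate between coding genes and the rest of the genome. In replicates 1, 2 and 3 their mean level was 0.814, 0.801 and 0.814 RPKM, or 0.810 ± 0.007 (SD, n = 3). Windows in protein-coding genes averaged 1.31, 1.33 and 1.37 RPKM in the same replicates, and windows in no annotated gene 0.588, 0.572 and 0.540. The 3 classes did not overlap between replicates. On the log2 scale lincRNA windows exceeded gene-free windows by 0.52 ± 0.07 (SD, n = 3), a ratio of 1.43, and were below coding windows by a log2 ratio of -0.72 ± 0.03, a ratio of 0.607. With the median over windows the log2 ratio to coding windows was -1.19 ± 0.34. Each direction held in 3 of 3 replicates. The two-sided exact sign-flip permutation test gave p = 0.25 for both, the smallest that 3 replicates allow, and 0.25 after Benjamini-Hochberg adjustment over 5 contrasts, so this design cannot reach 0.05. LincRNA windows were higher than gene-free windows on 18 of the 19 autosomes, and lower than coding windows on 19 of 19. The exception was chromosome 19, with a log2 ratio of -0.10 to gene-free windows, while the highest ratio, 0.85, was on chromosome 15.

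The nearest surroundings were compared next, to see whether the level follows the annotated genes or their neighbourhood. Flanking windows, which lie in no gene and 1 to 20 kb from a member gene, had 0.662, 0.638 and 0.607 RPKM in replicates 1, 2 and 3. They were thus between gene-free windows at large and the lincRNA windows. The log2 ratio of lincRNA to flanking windows was 0.35 ± 0.06 (SD, n = 3), in the same direction in 3 of 3 replicates, again with the smallest p of the exact test, 0.25. With the median over windows in place of the mean this ratio was 0.14 and p was 1, since a median here rests on 1 read in replicates 2 and 3.

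Enrichment, called by the authors above 1 RPKM, was equal in every valid window to a mean of the 3 replicates above 1. It was found in 13331 member windows, or 26.99%, against a background of 32.2% of all autosomal windows. Coding windows were enriched in 52.4%, flanking windows in 18.4% and gene-free windows in 15.8%. LincRNA windows thus lay below the share of all autosomal windows and above both classes without genes. Taken one at a time, replicates 1, 2 and 3 exceeded 1 RPKM in 27.1%, 28.8% and 31.0% of the members. A level above 1 in each replicate was reached by 16.2% of the members, against 20.1% of all autosomal windows. Of the enriched members 60.0% passed in each replicate, compared with 66.8% of enriched coding windows and 51.2% of enriched gene-free windows. By chromosome the enriched share of lincRNA windows ranged from 12.1% on chromosome 19 to 41.5% on chromosome 15.

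Values per gene fell into a large group of low genes and a broad tail of high ones. Over the 2986 genes the median level was 0.452 RPKM, with quartiles of 0.292 and 1.09, whereas the median of coding genes was 1.35. Between 0.2 and 0.4 RPKM lay 35.1% of the lincRNA genes and 16.1% of the coding genes. A mean above 1 was found in 796 lincRNA genes (26.7%), and in 58.2% of coding genes with at least 3 windows. Of the 796 genes, 650 were above 1 in every replicate (81.7%). Above 2 RPKM there were 299 lincRNA genes, or 10.01%, against 28.3% of coding genes. Above 3 there were 37 lincRNA genes, and the shares of the 2 kinds lay closer there. Between 3 and 3.2 RPKM were 0.603% of lincRNA and 0.746% of coding genes, and between 3.2 and 3.4 were 0.268% and 0.291%. The other lincRNA genes with a member window, 1540 with 1 or 2 windows, were not counted here. Windows in more than 1 lincRNA gene, 3.86% of the members, count in each of them.

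**Figure D1:**
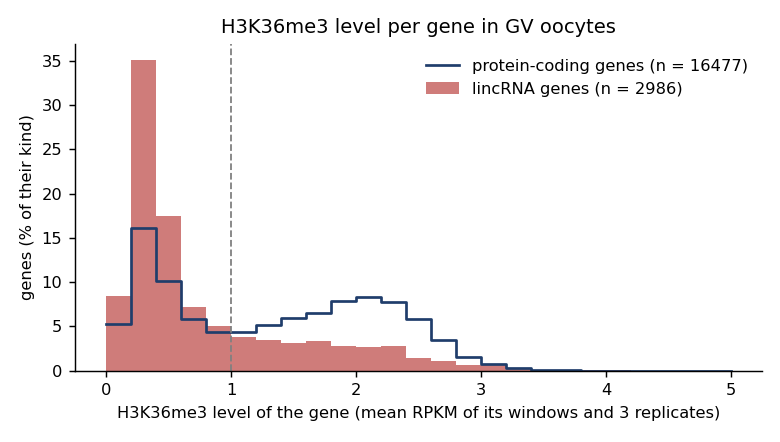
Distribution of the H3K36me3 level per gene, in steps of 0.2 RPKM, for 2986 lincRNA genes (bars) and 16477 protein-coding genes (line) with at least 3 windows; the y axis gives the percent of genes of each kind, the last step holds all higher genes, and the dashed line marks 1 RPKM. The lincRNA genes pile up between 0.2 and 0.4 RPKM and tail off above 1, where the coding genes form a second hump near 2.

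Many lincRNA genes had few or no enriched windows, and some were enriched throughout. No enriched window was found in 1446 of the 2986 genes (48.4%), and every window was enriched in 235. At most 20% of the windows were enriched in 1898 genes and at least 80% in 444, which leaves 644 genes between. These counts stand beside an enriched share of 26.99% of all member windows. No expected number was computed for them, and no like count was made for coding genes. Length made little difference to the share above 1, which was 25.7% of 856 genes under 10 kb, 26.9% of 1190 genes of 10 to 30 kb, 27.4% of 711 genes of 30 to 100 kb and 26.6% of 229 genes of 100 kb or more. Coding genes in the same steps were above 1 in 43.5%, 58.9%, 65.7% and 60.9%. Genes above and below 1 also lay at like distances from the nearest coding gene, with medians of 52.1 and 51.1 kb.

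The highest genes were named by a fixed order: at least 5 windows, every replicate above 1, and then the mean. Among 2209 genes with at least 5 windows, 511 passed in every replicate. The first 10 had means from 3.30 to 3.84 RPKM and lengths of 10.2 to 22.8 kb, and all of their 72 windows were enriched. They were chosen by their level, so these values are a description without a test.

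The highest was 5430440P10Rik (chr14:105427559-105437716, plus strand), an unstudied lincRNA named after a cDNA clone, with 2.96, 4.28 and 4.26 RPKM in replicates 1, 2 and 3 over 5 windows. Gm49632 (chr17:7645328-7660238, plus strand) had 3.10, 4.64 and 3.72 RPKM over 7 windows. Gm16080 (chr4:131694607-131710508, minus strand) had 2.92, 4.06 and 4.19 RPKM over 8 windows. Replicate 1 was the lowest of the 3 in each of them, as in 9 of the 10 genes, and in 53.2% of the 299 genes above 2 RPKM. 4930459C07Rik (chr10:96226020-96248866, plus strand) had 3.19, 3.82 and 3.48 RPKM over 11 windows. It differed from the other highest genes in its marks, since 5 of its 11 windows were also called for H3K27me3, and these are all of the H3K27me3 windows of the 10 genes. The other 6 genes, Gm39469, 4930512J16Rik, 5430403N17Rik, 4930452G13Rik, Gm35818 and 4933406G16Rik, had means of 3.47, 3.42, 3.39, 3.38, 3.32 and 3.30 RPKM in that order. The spread between replicates was largest in Gm35818, with 2.13, 4.59 and 3.24 RPKM, and the order of these genes lies within the spread of each. All 10 stood 10.8 to 120 kb from the nearest protein-coding gene, and 2 of them started in repeat-masked bases.

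**Figure D2:**
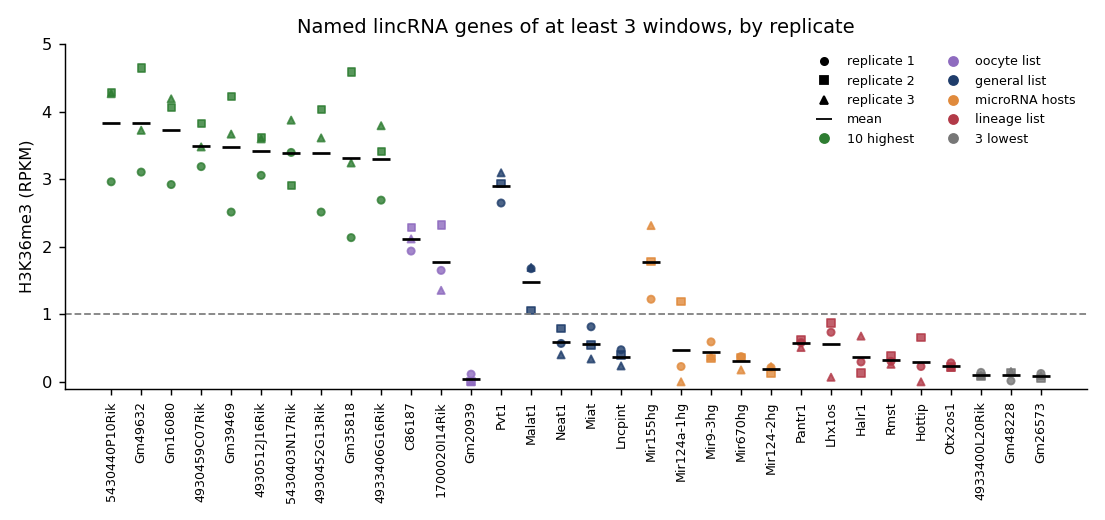
H3K36me3 level in RPKM (y axis) of named lincRNA genes with at least 3 windows; symbols are the 3 replicates, the black bar their mean, colours the reason for naming, and the dashed line 1 RPKM. The 10 highest genes sit above 2 RPKM in every replicate, Pvt1 reaches 2.89 on average, and the genes of the lineage list lie below 1 in every replicate.

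Longer genes gave values from more reads, and Pvt1 was high in all replicates. Pvt1 (chr15:62037986-62378096, plus strand) lies next to the Myc gene, hosts microRNAs and is amplified together with Myc in tumours. It had 2.65, 2.93 and 3.09 RPKM in replicates 1, 2 and 3, a mean of 2.89 ± 0.23 (SD, n = 3) from 6125 reads over 170 windows. It was enriched in 165 of these windows, and in 139 in each replicate, with H3K27me3 called in 1 window and H3K4me3 in 16. Its level ranked 50 among the 2986 genes. The high level did not stop at the annotated ends: gene-free windows within 50 kb averaged 2.07 RPKM before the start (21 of 24 enriched) and 2.33 after the end (25 of 25 enriched).

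Runs of neighbouring member windows above 1 in all 3 replicates were then measured, to find the longest unbroken stretches. The longest spanned 56 kb and 28 windows in 6030407O03Rik and the overlapping Gm29183 on chromosome 1, with 2.70, 3.19 and 3.13 RPKM. The next were 46 kb each, in Gm47448 and Gm34466 on chromosome 13 (2.70, 3.64 and 3.605 RPKM), in Pvt1 (2.89, 4.29 and 3.35 RPKM), and in Gm31135 and Gm31343 on chromosome 8 (2.96, 3.05 and 3.66 RPKM). The fifth was 42 kb in Gm45020 and A730082K24Rik on chromosome 7, with 2.61, 2.81 and 2.45 RPKM. None of these 5 runs held an H3K27me3 window, and they held between 0 and 5 H3K4me3 windows. The chromosome 1 run lay wholly in both of its genes, so its reads cannot be assigned to a single gene. On chromosomes 13 and 8 the 2 genes overlap in only a part of the run, and the same holds for that part. On chromosome 7 Gm45020 and A730082K24Rik adjoin without overlap.

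Domains were also followed without regard to the annotation of their ends. Enriched windows formed 3652 runs that held a member window, and 3399 of these (93.1%) had no window in or under 2 kb from a protein-coding gene. This share has to be read beside the position of the members themselves, since 98.7% of all member windows and 98.9% of the enriched ones lay at least 2 kb from a coding gene. Of the runs apart from coding genes 37.9% were a single window and 1026 had at least 5 windows. In these longer runs 64.1% of the windows were lincRNA windows, and the rest lay outside the annotated lincRNA genes. The longest such run was 230 kb in and before Pvt1 (115 windows, 94 of them members, 2.79 RPKM). A run of 208 kb on chromosome 8 touched 1700018P08Rik in 1 window only, with a mean of 2.89 RPKM over 104 windows.

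The shape along the gene differed between lincRNA and coding genes. Genes of at least 20 kb were divided into 10 equal parts from start to end. In 1331 lincRNA genes the last part over the first part was 0.996, 1.02 and 0.979 in replicates 1, 2 and 3, a mean of 0.997 ± 0.018 (SD, n = 3). In 9537 coding genes it was 1.46, 1.478 and 1.56, a mean of 1.50 ± 0.06. The 2 sets of replicate values did not overlap. Among genes above 1 RPKM the ratio was 0.942 ± 0.010 in 373 lincRNA genes and 1.47 ± 0.04 in 6102 coding genes. The rise from start to end seen in coding genes was thus not seen in these lincRNA genes as annotated.

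Levels around the lincRNA genes above 1 were raised as well. In the 5 kb before their start the level was 1.28 ± 0.09 RPKM (SD, n = 3) and in the 5 kb past their end 1.51 ± 0.06, against 1.84 ± 0.15 in the first and 1.73 ± 0.12 in the last part of the gene. At 15 to 20 kb past the end it was 1.16 ± 0.03. Coding genes above 1 fell from 2.12 ± 0.11 in the last part to 1.29 ± 0.03 just past the end and 0.737 ± 0.030 at 15 to 20 kb. Gene by gene, 726 genes above 1 had at least 3 flanking windows of their own, and 55.8% of them had flanks that averaged above 1 too, against 5.74% of 2072 genes not above 1. Still, 83.2% of the genes above 1 were higher than their own flanks, where choosing genes by their level favours that outcome. Median levels were 1.76 RPKM in the gene and 1.09 in its flanks.

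**Figure D3:**
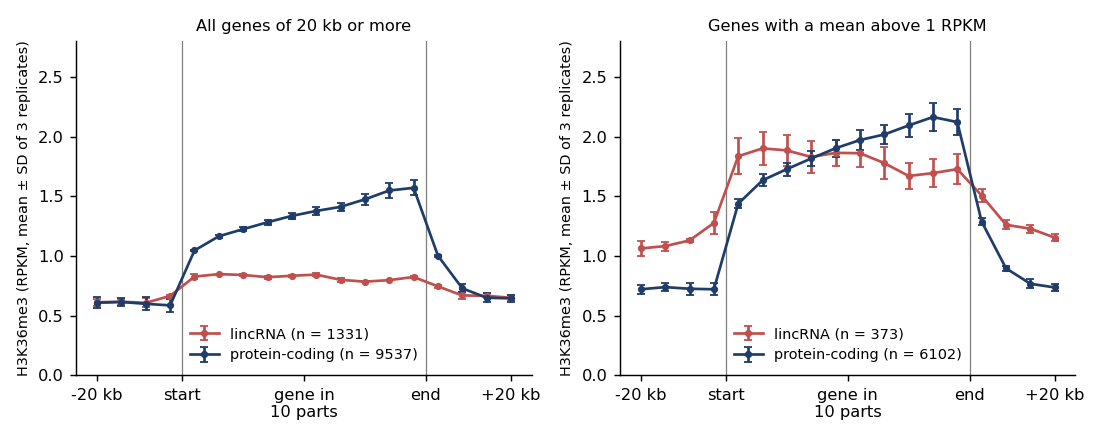
H3K36me3 in RPKM along genes of at least 20 kb, in 10 equal parts between start and end and in steps of 5 kb over 20 kb on either side (gene-free windows only), as mean ± SD of 3 replicates; left, all genes, right, genes with a mean above 1 RPKM. Coding genes (blue) climb towards the end and drop past it, whereas lincRNA genes (red) are flat inside the gene and, when above 1, stay above 1 on both sides.

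Start windows averaged less H3K36me3 than body windows, in a comparison that does not pair them within genes. The 2251 member windows that hold a lincRNA start averaged 0.711 ± 0.025 RPKM (SD, n = 3), and the 41854 windows at least 4 kb inside from the start 0.818 ± 0.008. The log2 ratio was -0.20 ± 0.05, below 0 in 3 of 3 replicates, with p = 0.25 by the exact sign-flip test, the smallest possible. The median over windows did not differ, with a log2 ratio of 0. H3K4me3 was called in 56.1% of start windows and 27.6% of body windows, against 28.7% of all autosomal windows. Start windows of genes above and not above 1 carried this call alike, in 56.1% of 396 and 55.2% of 1123, the genes whose start window is a member. In contrast, H3K27me3 was called in 12.4% of the start windows of genes above 1 and in 57.2% of the others, against 30.6% of all autosomal windows.

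Windows with an exon were set beside those without, since splicing machinery and H3K36me3 are linked at coding exons. The 11426 windows with an exon base had 0.847 ± 0.003 RPKM (SD, n = 3) and the other 37958 had 0.798 ± 0.009, with enriched shares of 27.8% and 26.8%. The windows with an exon were also called more often for H3K4me3, in 42.3% against 27.3%, and held more CpG, with a mean of 20.4 against 14.5. Whether these features play a part in the small difference in level was not tested.

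Distance from coding genes was examined next, to see whether the level goes with it. Members under 5 kb from a coding gene had 0.75 ± 0.022 RPKM (SD, n = 3; 1648 windows) and those at least 50 kb away 0.815 ± 0.009 (35923 windows, 72.7% of all). The log2 ratio of near to far was -0.12 ± 0.05, below 0 in 3 of 3 replicates (exact sign-flip test, p = 0.25, the smallest possible), and it was 0 for the median over windows. Gene-free windows ran the other way, with 0.693 ± 0.031 RPKM under 5 kb from a coding gene and 0.542 ± 0.020 at 50 kb or more; the difference between the 2 classes was not tested. Members over 1 Mb from any coding gene were lower, at 0.494 ± 0.022 RPKM and 14.5% enriched. Gene-free windows at that distance had 0.373 ± 0.023 RPKM and 7.69% enriched.

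LincRNA genes next to a coding gene were counted by the level of that coding gene, beside the 26.7% of all 2986 lincRNA genes that were above 1. Among 133 lincRNA genes that start head to head within 2 kb of a coding start, 30 were above 1. This was 24 of 79 (30.4%) where the coding gene was above 1 and 6 of 54 (11.1%) where it was not. Among 144 lincRNA genes on the same strand within 10 kb after the end of a coding gene, 33 of 77 (42.9%) were above 1 beside a coding gene above 1, and 8 of 67 (11.9%) beside one that was not. The median level was 0.911 and 0.358 RPKM in these 2 sets. The head-to-head share beside coding genes above 1 was thus near that of all lincRNA genes, and no difference between these sets was tested. The counts concern a small part of the 2986 genes.

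The other marks were read from the deposited calls, 1 per window and without replicates, with H3K4me3 and H3K27me3 from other GV oocyte libraries than the 3 used here. H3K27me3 was called in 18489 member windows (37.4%), above the 30.6% of all autosomal windows, and in 34.0% of gene-free, 44.1% of flanking and 25.9% of coding windows. H3K4me3 was called in 15201 members (30.8%), near the 28.7% of all autosomal windows and the 31.2% of gene-free windows, while flanking windows had 40.5% and coding windows 25.4%. H3K36me3 alone was called in 19.6% of the members, H3K27me3 alone in 24.0%, H3K4me3 alone in 15.1%, and no mark in 23.4%. Unmarked members had a median of 38.2% repeat-masked bases and 39.1% GC, while enriched members had 22.1% and 42.4%.

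**Figure D4:**
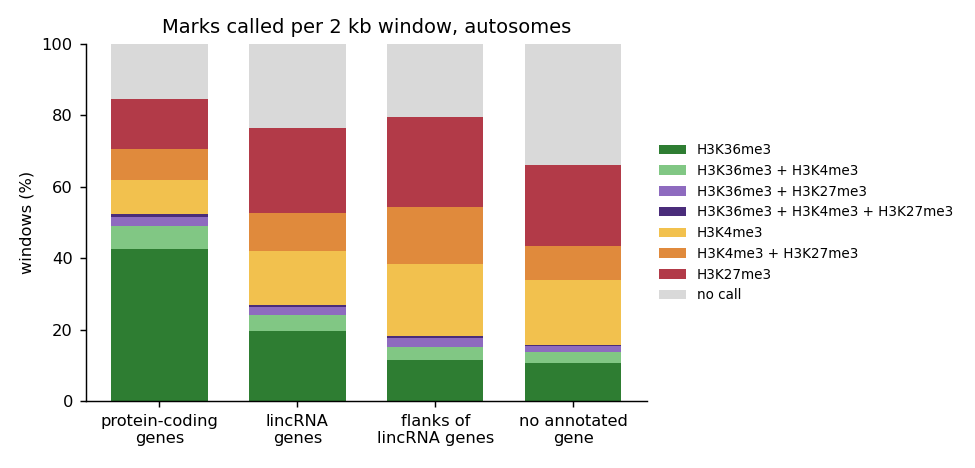
Share of 2 kb windows (y axis, percent) in each combination of calls for H3K36me3, H3K4me3 and H3K27me3, for windows in protein-coding genes, in lincRNA genes, in gene-free flanks of lincRNA genes and in no annotated gene. LincRNA windows hold more H3K27me3 alone (24.0%) than H3K36me3 alone (19.6%), whereas coding windows are led by H3K36me3 alone (42.6%).

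H3K36me3 and H3K27me3 tended to lie apart in lincRNA genes. Both were called in 1424 member windows, where 4817 would be expected from the shares on each chromosome, a ratio of 0.296. The enriched share was 7.70% of members with H3K27me3 and 38.5% of those without. With calls from single replicates the ratio was 0.318, 0.552 and 0.460, and it was highest in replicate 2, the one made with less antibody and the shallowest; the part of either was not tested. The same ratio was 0.238 in coding and 0.367 in gene-free windows, so that lincRNA windows lay between them. This order held in each of the 3 replicates and was not tested. At a threshold of 2 RPKM the lincRNA ratio was 0.183. Windows with both marks made up 2.88% of the members, against 2.54% of all autosomal windows. For H3K4me3 the ratio was 0.624, with 0.675, 0.769 and 0.737 in single replicates. It was 0.547 in coding, 0.690 in gene-free and 0.560 in all autosomal windows, so the lincRNA value again lay between coding and gene-free windows.

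By gene, 710 of the 2986 lincRNA genes had H3K36me3 in more than 50% of their windows, 1180 had H3K27me3 in more than 50%, 41 had both and 1137 had neither. Over all member windows the shares were 26.99% for H3K36me3, 37.4% for H3K27me3 and 2.88% for both. No expected number was computed by gene, and no like count was made for coding genes. In genes above 1 RPKM 9.19% of the windows were called for H3K27me3, and 554 of the 796 genes (69.6%) had no such window. In the 2190 other genes 47.6% of the windows were called, and 17.5% of the genes had none. H3K4me3 covered 24.2% and 31.9% of the windows of these 2 groups.

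The genes with most windows of both marks were long, which the choice by number of windows favours. 4930428N03Rik (chr14:24617557-24788520, plus strand) had both calls in 27 of 61 windows, with 1.39, 1.20 and 1.71 RPKM in replicates 1, 2 and 3. Gene-free windows within 50 kb were higher than the gene, at 2.38 RPKM before the start (15 of 15 enriched) and 2.19 after the end (21 of 24). Those before the start lay over 20 kb from it, because the nearer windows were lincRNA windows outside this gene. These nearer windows ranged from 0.603 to 2.64 RPKM. Windows with both marks went on past the end, so the double marking was not confined to this gene. Part of this gene had no valid window, which is the empty stretch in the plot along the gene. Gm49575 on chromosome 16 had both in 23 of 106 windows (1.10 ± 0.16 RPKM, SD, n = 3). 6030407O03Rik had both in 20 of 118 windows at 2.44 ± 0.14 RPKM, in the same gene as the longest run without H3K27me3. Gm36723 on chromosome 12 had both in 20 of 84 windows at 2.23 ± 0.25 RPKM, and AC141639.4 had both in 16 of 88 at 1.58 ± 0.03 RPKM. In 4930428N03Rik 41 windows were enriched and 38 had H3K27me3, so 27 of the 41 enriched windows carried both, against 20 of 105 in 6030407O03Rik.

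None of the listed lincRNA genes of somatic lineages was above 1, and most of their windows were called for H3K27me3. These are RNAs named for their place beside developmental regulators or for roles in neural or limb development. Of 31 names 24 were in the annotation, 7 of them as lincRNA genes with a member window, and 0 of these 7 were above 1, against 25.3% of the 4526 lincRNA genes with a member window. Their median level was 0.368 RPKM, with a range from 0.237 to 0.571. The median was 0.452 over the 2986 lincRNA genes with at least 3 windows, a minimum that 1 of the 7 does not meet. The lower quartile was 0.292, so the median of the list lay within the middle range of lincRNA genes. Pantr1 and Lhx1os, at 0.571 and 0.558 RPKM, were above the lincRNA median and the others below it. H3K27me3 was called in 177 of their 213 windows (83.1%), against 37.4% of all members and 47.6% of the windows of genes not above 1, and in at least 1 window of 6 of the 7 genes. Most of the 213 windows lay in Otx2os1 (98), Pantr1 (52) and Rmst (47). Otx2os1 (chr14:48668708-48870683, plus strand), which starts opposite the head and eye regulator Otx2, had 0.280, 0.218 and 0.214 RPKM over 98 windows, with 0 enriched and 85 called for H3K27me3. Its gene-free surroundings within 50 kb were as low, at 0.25 RPKM before and 0.269 after the gene. Rmst, a neural RNA that works with SOX2, had 0.303, 0.388 and 0.259 RPKM, with 45 of 47 windows called for H3K27me3. Pantr1, beside the neural factor gene Pou3f3, had 0.580, 0.625 and 0.508 RPKM, with 8 of 52 windows enriched and 37 called for H3K27me3. Lhx1os had 0.733, 0.872 and 0.068 RPKM over 5 windows, all called for H3K27me3. Hottip and Hotair, of the HoxA and HoxC clusters, held 3 and 2 windows, all of which were called for H3K27me3. Halr1, also beside HoxA, was the gene without such a call, at 0.368 ± 0.280 RPKM over 6 windows.

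**Figure D5:**
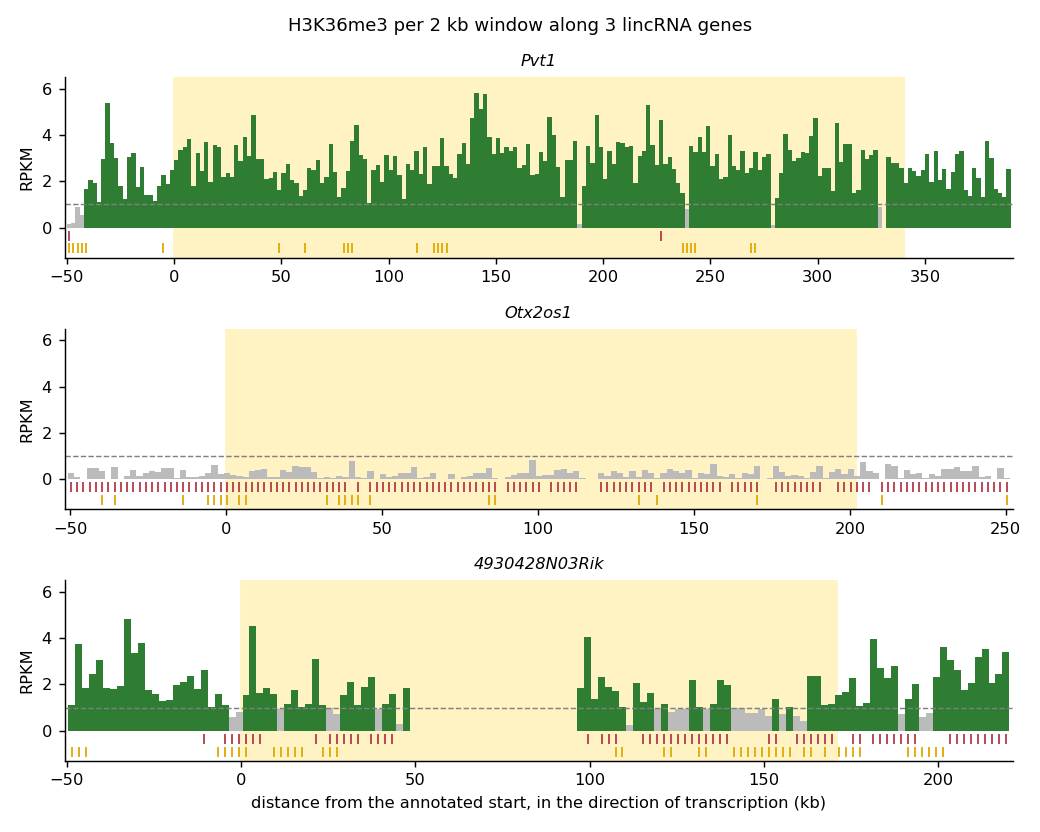
H3K36me3 per 2 kb window (bars, mean RPKM of 3 replicates, green above 1) against the distance from the annotated start in kb, for Pvt1, Otx2os1 and 4930428N03Rik with 50 kb on either side; yellow marks the gene, the dashed line 1 RPKM, and ticks below the bars the windows called for H3K27me3 (red) and H3K4me3 (yellow). Pvt1 is above 1 along nearly its whole length, and Otx2os1 is below 1 throughout with H3K27me3 in 85 of 98 windows. In 4930428N03Rik green bars and red ticks coincide in 27 windows of the gene and also past its end, with a stretch that has no valid window.

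Genes that host microRNAs were above 1 about as often as lincRNA genes at large. Of 10 annotated names 7 were lincRNA genes with a member window, and 2 of these were above 1, in every replicate, beside 25.3% of all lincRNA genes with a window. Mir17hg, host of the miR-17-92 cluster that promotes growth, had 2.24, 1.98 and 1.52 RPKM over 2 windows. Mir155hg, host of miR-155 of immune cells, had 1.22, 1.78 and 2.31 RPKM over 6 windows. The other 5 lay between 0.045 and 0.472 RPKM. Mir9-3hg, a host of the neural miR-9, had 0.591, 0.350 and 0.378 RPKM, with H3K27me3 in 16 of 17 windows, and Mir670hg had 0.373, 0.358 and 0.176 RPKM with H3K27me3 in 38 of 52 windows. Mir124-2hg and Mir124a-1hg, hosts of the neural miR-124, had 0.190 ± 0.050 and 0.472 ± 0.631 RPKM. Hosts of small nucleolar RNAs, which guide modification of ribosomal RNA, held few member windows. Of 15 names 5 were lincRNA genes with a member window, with 7 windows in all and under 3 each, and 6 of the 7 were enriched, beside 26.99% of all member windows. By gene 4 of the 5 were above 1, 2 of them in every replicate, beside the same 25.3%. Snhg6 had 3.80, 4.36 and 8.12 RPKM in its single window, from 63 reads, and Snhg20 had 0.543, 1.59 and 0 RPKM, from 8 reads. All 5 genes are at most 4.10 kb long, so a window can reach beyond them. Snhg6 and Snhg12 each had a window midpoint 0.916 and 0.762 kb from a coding gene, so these 2 kb windows reached into a coding gene.

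Widely expressed nuclear and housekeeping lincRNAs were also near the share of all lincRNA genes. Of 14 names 11 were in the annotation and 6 were lincRNA genes with a member window, of which 2, Pvt1 and Malat1, were above 1 in every replicate, a count read beside the same 25.3%. Malat1, a nuclear speckle RNA abundant in most tissues, had 1.67, 1.06 and 1.69 RPKM over 3 windows. Neat1, its neighbour and the scaffold of paraspeckles, had 0.568, 0.793 and 0.40 RPKM over 11 windows, of which 11 were called for H3K4me3 and 8 for H3K27me3. The 2 genes did not overlap in any replicate, but both rest on few reads, 60 and 81. Lncpint, a p53-induced RNA, had 0.474, 0.396 and 0.235 RPKM, with H3K27me3 in 66 of 69 windows. Miat had 0.815, 0.545 and 0.338 RPKM over 8 windows, with 6 called for H3K27me3. Epb41l4aos held 1 window, at 0.720 ± 0.347 RPKM.

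Of the 6 names of the oocyte list 3 were of type lincRNA, and D6Ertd527e, E330034G19Rik and AU015228 were of another type and so not members. C86187 (chr7:46967711-46975911, minus strand) had 1.94, 2.28 and 2.12 RPKM over 4 windows, all enriched. 1700020I14Rik (chr2:119594297-119607502, plus strand) had 1.65, 2.32 and 1.35 RPKM, with 6 of 7 windows enriched. Gm20939 (chr17:94864918-94878321, plus strand) had 0.113, 0 and 0 RPKM, from 5 reads over 6 windows in all. None of the 17 windows of these 3 genes was called for H3K27me3. The 6 windows of Gm20939 had no call for any of the 3 marks, and how well reads can be placed in them was not tested. C86187 and 1700020I14Rik were thus above 1 in every replicate and Gm20939 near 0, a level at the 0.636 percentile of the lincRNA genes. The printed starts of C86187, 1700020I14Rik and Gm20939 held 4, 15 and 6 CpG, so CpG number did not order them.

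The lowest genes with at least 20 windows were Gm26573 on chromosome 4 (0.123, 0.054 and 0.092 RPKM), Gm48228 on chromosome 13 (0.014, 0.139 and 0.152 RPKM) and 4933400L20Rik on chromosome 8 (0.140, 0.077 and 0.094 RPKM). Gm26573 spans 872 kb but held 44 valid member windows and Gm48228 spans 119 kb with 20, and valid windows of any kind made up 15.9% and 33.3% of the 2 kb windows over these 2 genes. 4933400L20Rik, by contrast, had 36 windows over 76.6 kb, 94.7% of those possible, and lay 423 kb from the nearest coding gene. Reads in these 3 genes numbered 58, 18 and 54.

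Base composition was compared last. Enriched members had a median GC content of 42.4% and the other members 41.5%, with a mean of 15.8 and 15.9 CpG per window, so CpG number did not separate them. Repeat-masked bases took a median of 22.1% and 24.9%. Starts in repeat-masked bases were found for 182 of the 796 genes above 1 (22.9%) and 421 of the 2190 others (19.2%), against 8.42% of coding genes. LincRNA genes thus started in repeats more often than coding genes, with a small difference between those above and not above 1. These shares were not above the repeat-masked share of bases at large, a median of 24.0% in lincRNA windows and 24.9% in all autosomal windows. These are descriptions over the annotation, with no test.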

How the data were processed

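H3K36me3 was profiled in GV oocytes by ultra-low-input native ChIP-seq, with 3 replicates in a single group. After trimming, the authors aligned the reads with Bowtie2 2.2.9 (version per the labels) to GRCm38 and deposited RPKM per 2 kb window, from SeqMonk, after removal of windows with very low or very high input; removal of duplicates is not stated. The deposited RPKM values were whole multiples of the value of 1 read (tolerance 0.01) in 100% of windows, from which reads were recovered for depth only. Their sum per replicate is nearer to that of CPM than of RPKM, which was not settled and leaves ratios unchanged. A second deposited table names the marks the authors called per window; H3K4me3 and H3K27me3 came from libraries published before.

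Windows were assigned by midpoint to GENCODE M21 genes, with Python 3.11.15, numpy 2.4.6, pandas 2.3.3 and scipy 1.17.1. A gene's level was the mean over its member windows. Levels of classes were compared as the log2 ratio of mean RPKM within each replicate, without a pseudocount, by an exact permutation test that flips the signs of the 3 ratios (two-sided), adjusted by Benjamini-Hochberg over 5 contrasts. With a single group no model across windows was fitted. The labels do not say whether the pools came from separate animals, so the SD may be partly technical. The expected number of windows with 2 calls was the product of their shares on each chromosome, summed over autosomes. Named were the 10 highest genes (at least 5 windows, every replicate above 1), the genes of the 5 longest runs, the 5 genes with most windows of both H3K36me3 and H3K27me3, the 3 lowest genes with at least 20 windows, and the lincRNA genes of 5 lists. The members and lists were chosen with earlier results of these data known. Scripts were tested on simulated data. Alternatives were other thresholds, the median, whole windows, distance from coding genes and each replicate left out. 3 genes are not reported here.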

Additional observations from a re-analysis of the deposited data

How the results depend on the processing

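The 13 main results were recomputed under 79 alternatives, of which 65 counted as the same and 14 as moved. Only 32 of them, those of the level contrasts, have a direction. It was kept in 30 and reversed in 0, while medians put the others at a log2 ratio of 0. Leaving out a replicate could not turn a direction, because all 3 replicates shared a sign. With a single group there was nothing to block by replicate number, and each log2 ratio is already taken within a replicate. The ratio to gene-free windows could not be taken with medians, because a replicate had a median of 0 there, and start windows could not lie wholly inside a gene. With medians the log2 ratio was -1.19 to coding windows, 0 for start against body windows and 0 for near against far windows. The enriched share was 18.6% at a threshold of 1.5, 12.2% at a threshold of 2 and 16.2% above 1 in all 3 replicates. A threshold of 2 left 299 genes and gave an observed over expected ratio of 0.183 for H3K27me3 and 0.345 for H3K4me3. The latter was 0.635 to 0.679 with a replicate left out. Windows wholly inside the gene had H3K27me3 in 36.7% and H3K4me3 in 29.0%, and members at least 5 kb from coding genes had H3K4me3 in 29.9%. The share of runs apart from coding genes was 97.6% at a threshold of 2, 96.7% above 1 in all 3 replicates and 86.4% with 10 kb counted as touching. Shares from fewer windows or higher thresholds differ by construction. Without a replicate in turn, the log2 ratio was 0.48 to 0.54 to gene-free, -0.74 to -0.71 to coding and 0.31 to 0.38 to flanking windows, and 779 to 819 genes were above 1. The depth of replicates 2 and 3, a median of 1 read per window, limits calls of single windows.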
